A study of Mus musculus with 4 samples.

Results

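The genes described here encode the machinery of V(D)J recombination and of the end joining that completes it. They were chosen by name, as all probe sets annotated to 1 gene alone among 10 listed genes, with earlier results of these data known. Of the 10 genes, 9 had such a probe set (Rag1, Rag2, Dntt, Xrcc4, Xrcc5, Xrcc6, Lig4, Prkdc and Nhej1), with 14 probe sets in all, out of 18193 genes and 45101 probe sets on the array. Dclre1c, the nuclease Artemis, was not analysed here, because none of the annotated probe sets used named it alone.

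RNA of 4 samples from C57BL6 mice was hybridised to Affymetrix mouse arrays, 1 array per sample, to set leukemias driven by fusions of the genes MLL and AF4 beside normal marrow. Mixed lineage leukemia arose from hematopoietic stem and precursor cells transduced with AF4-MLL together with MLL-AF4. The leukemia labelled as biphenotypic for B and T cells (B/T BAL) and proB acute lymphoblastic leukemia (proB ALL) arose from such cells transduced with AF4-MLL without the other fusion. The 4th sample was normal bone marrow of the control. The leukemic samples were unsorted marrow that was taken, after several months, from moribund mice, so each held whatever resident cells the marrow still had, and each stands for 1 leukemia.

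V(D)J recombination assembles the antigen receptor genes of developing B and T cells. The recombinase RAG1 and RAG2 cuts the DNA beside the gene segments, terminal deoxynucleotidyl transferase (TdT, encoded by Dntt) adds bases at the open ends, and classical end joining seals them. Ku70 (Xrcc6) and Ku80 (Xrcc5) hold the ends, the DNA-dependent protein kinase (Prkdc) and Artemis process them, and ligase IV (Lig4) with XRCC4 and XLF (Nhej1) joins them. Rag1, Rag2 and Dntt are known to be transcribed in lymphocyte precursors, whereas the end joining genes are used by cells of all kinds to repair broken DNA.

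The start regions of Rag1, Rag2 and Dntt are shown because these genes encode the proteins of recombination known from lymphocyte precursors, and that of Xrcc6 is set beside them as a gene that all cells use. Each is the 250 bases before to 50 bases after the start site, in RefSeq's GRCm38.p6 assembly, 5′ to 3′ on the gene's own strand, and capitals mark every match to CANNTG, the E-box to which E proteins such as E2A bind (the motif reads the same on both strands). Rag1 lies on the minus strand at chr2:101649483-101649782, Rag2 on the plus strand at chr2:101624462-101624761, Dntt on the plus strand at chr19:41029025-41029324 and Xrcc6 on the plus strand at chr15:82016119-82016418.
Rag1: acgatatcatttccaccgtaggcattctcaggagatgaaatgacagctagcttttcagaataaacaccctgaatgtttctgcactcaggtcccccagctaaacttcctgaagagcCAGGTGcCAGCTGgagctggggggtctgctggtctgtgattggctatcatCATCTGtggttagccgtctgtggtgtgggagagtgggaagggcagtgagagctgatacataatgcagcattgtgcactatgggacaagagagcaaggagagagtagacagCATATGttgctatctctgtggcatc
Rag2: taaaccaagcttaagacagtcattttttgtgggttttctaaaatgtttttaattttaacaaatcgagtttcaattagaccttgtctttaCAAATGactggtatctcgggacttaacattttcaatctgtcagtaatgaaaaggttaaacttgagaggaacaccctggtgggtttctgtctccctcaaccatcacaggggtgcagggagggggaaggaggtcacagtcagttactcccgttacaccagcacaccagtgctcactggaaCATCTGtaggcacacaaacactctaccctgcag
Dntt: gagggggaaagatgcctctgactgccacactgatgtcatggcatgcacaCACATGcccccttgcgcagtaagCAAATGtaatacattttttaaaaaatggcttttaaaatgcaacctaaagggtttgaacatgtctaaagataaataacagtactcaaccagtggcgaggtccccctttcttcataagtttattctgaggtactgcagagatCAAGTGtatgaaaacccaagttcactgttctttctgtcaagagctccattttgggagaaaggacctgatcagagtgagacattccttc
Xrcc6: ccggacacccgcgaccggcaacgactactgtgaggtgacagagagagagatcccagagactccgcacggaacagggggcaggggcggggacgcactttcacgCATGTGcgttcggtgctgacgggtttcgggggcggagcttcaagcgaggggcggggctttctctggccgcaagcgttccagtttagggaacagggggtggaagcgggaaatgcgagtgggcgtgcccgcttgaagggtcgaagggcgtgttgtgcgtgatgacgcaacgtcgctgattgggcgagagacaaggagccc

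Rag1 held 4 E-boxes in this window, a number that 6.49% of the 32851 RefSeq promoters of this length reached or passed. Dntt held 3 (reached by 17.6%), Rag2 held 2 (39.6%) and Xrcc6 held 1, and 72.3% of all promoters had at least 1. Adjacent E-boxes of Rag1, separated by a single base, can be seen in the middle of its sequence. The windows of Rag1, Rag2 and Dntt were also poor in CG dinucleotides, with 3, 3 and 2, against a median of 7 over all promoters. Among the end joining genes, Xrcc4 had 31 CG dinucleotides, Xrcc6 had 30, the 2 start sites of Lig4 had 30 and 29, Dclre1c had 12, Nhej1 had 10 and Xrcc5 had 9, and Prkdc was not in the promoter table used. The Ikaros core TGGGAA was found once in Rag1 and once in the second Lig4 window (25.6% of all promoters held it, on either strand), while the forkhead sequence TGTTTAC (3.65% of promoters) and the TATA box TATAAA (13.6%) had no match in any of the 10 windows of these genes. Such matches describe the letters in these windows and nothing else.

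**Figure D1:**
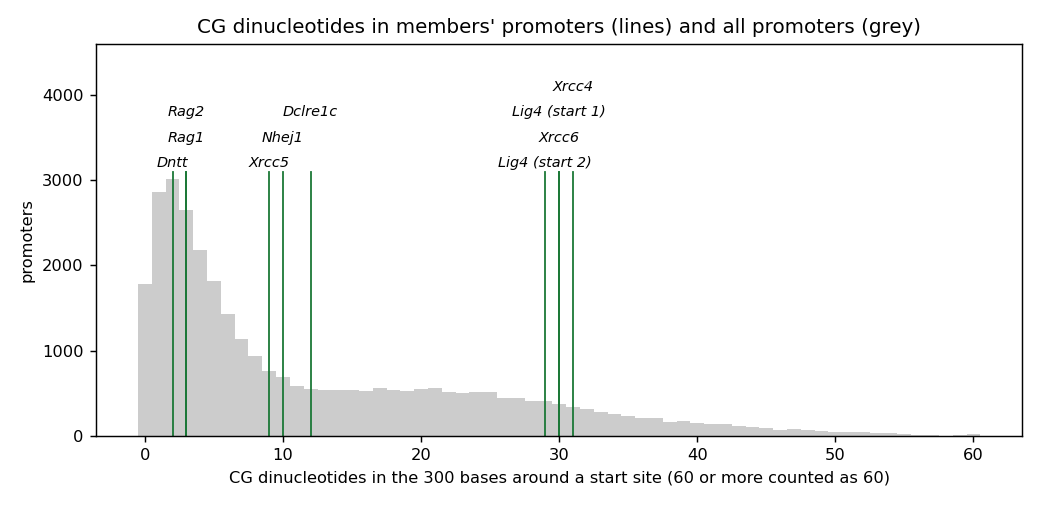
Number of CG dinucleotides in the 300 bases around the start site (horizontal axis) for all 32851 RefSeq mouse promoters (grey bars, number of promoters) and for the members (green lines; Lig4 has 2 start sites). Rag1, Rag2 and Dntt stand at 3, 3 and 2, while Xrcc4, Xrcc6 and Lig4 stand between 29 and 31.

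The deposited signals were on a linear scale with a trimmed mean of 1000 on each array. The median of all signals, 189, is used as the floor below which a signal is read as background, and differences are in log2 of the signal plus 51.4. The mixed lineage array had 57.4% of its probe sets above the floor, against 49.0% on the B/T BAL array, 46.3% on the proB ALL array and 47.2% on the normal marrow array. For Actb, whose control probe sets report on RNA integrity, the signal at the 3' end over that at the 5' end came to 3.10 in mixed lineage leukemia, 4.72 in B/T BAL, 2.47 for the proB ALL array and 1.87 for normal marrow. The same ratio for Gapdh was 1.24 in mixed lineage leukemia, 1.14 in B/T BAL, 1.28 in proB ALL and 0.944 in normal marrow, so that B/T BAL had the highest of the leukemias by Actb and the lowest by Gapdh. Markers did not all follow the labels: on the array labelled proB ALL, 0 of 10 measured markers of B-cell precursors were at least 2-fold above normal marrow and 9 were at least 2-fold below it, while 12 of 12 markers of natural killer (NK) and cytotoxic cells were at least 2-fold above it. On the B/T BAL array 0 of the same 10 B-cell precursor markers were at least 2-fold above normal marrow and 8 were at least 2-fold below it. With 1 array per group there is no replicate error for a single array, and in these bulk samples fewer cells of a type cannot be told apart from less RNA per cell.

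Rag1 and Dntt had high signals in B/T BAL, little or none in mixed lineage leukemia and proB ALL, and clear signals between these in normal marrow. Rag1, the catalytic subunit of the recombinase, had a signal of 19.8 in mixed lineage leukemia, 14988 in B/T BAL, 1.76 in proB ALL and 1721 in normal marrow. It was 8.71-fold higher in B/T BAL than in normal marrow. In both mixed lineage leukemia and proB ALL it lay under the floor, at least 9.12-fold below normal marrow. Between B/T BAL and proB ALL, which carry the same fusion, Rag1 differed by at least 79.5-fold. With signals under the floor raised to it, the log2 difference of Rag1 there was 5.97, which ranked 2 among the 14146 genes then tested.

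TdT was measured by 3 probe sets of Dntt, and they gave the same order of arrays. By the probe set that stands for the gene, the signals were 314 in mixed lineage leukemia, 11061 in B/T BAL, 82.8 in proB ALL and 2913 in normal marrow. A second probe set had 196 in mixed lineage leukemia, 7369 in B/T BAL, 122 in proB ALL and 2290 in normal marrow, and the third had 157 in mixed lineage leukemia, 4435 in B/T BAL, 29.1 in proB ALL and 1462 in normal marrow. All 3 were highest in B/T BAL, next in normal marrow, then in mixed lineage leukemia, and lowest in proB ALL. The last step lay near or under the floor. Signals in proB ALL were under it by all 3, and that in mixed lineage leukemia by the third. The median signal was also higher on the mixed lineage array (254) than on the proB ALL array (149). The difference between B/T BAL and normal marrow was 3.80-fold by the first, 3.22-fold by the second and 3.03-fold by the third. Mixed lineage leukemia was 9.27-fold below normal marrow by the first and 11.7-fold by the second, and proB ALL was at least 15.4-fold, 12.1-fold and 7.75-fold below it by the 3. Between B/T BAL and proB ALL Dntt differed by at least 58.7-fold, and with signals raised to the floor its log2 difference of 5.53 ranked 10 among the 14146 genes.

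Rag2, the partner subunit, was barely measured. Its 1 probe set had 30.4 in mixed lineage leukemia, 201 in B/T BAL, 7.81 in proB ALL and 122 in normal marrow, so that B/T BAL alone exceeded the floor, by little. The log2 differences from normal marrow were -1.08 in mixed lineage leukemia, 0.55 in B/T BAL and -1.55 in proB ALL. Those of mixed lineage leukemia and proB ALL compare signals under the floor on both sides, and no fold is given for them.

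**Figure D2:**
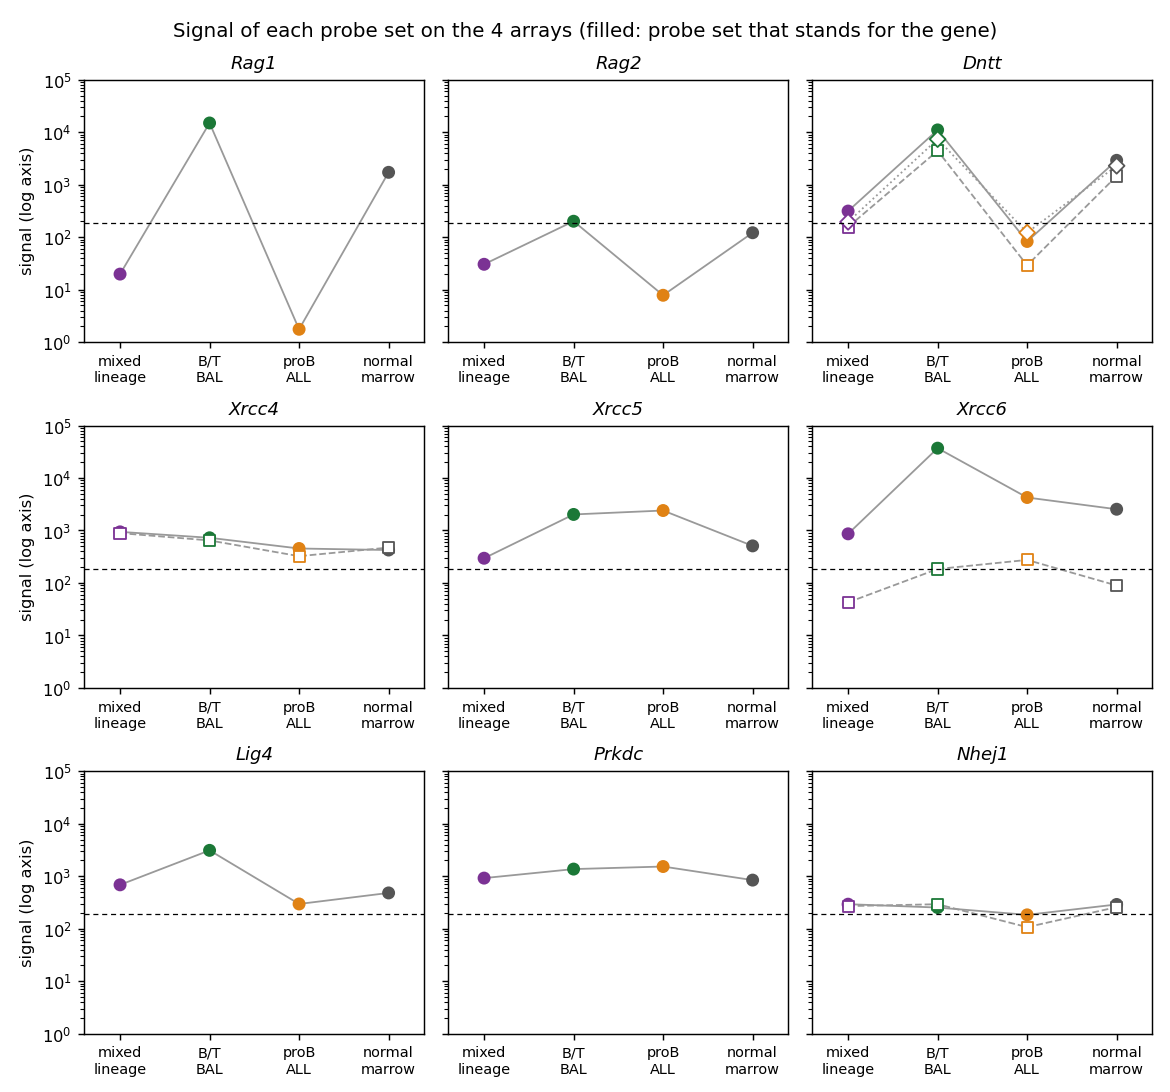
Signal on a log axis for each probe set of the 9 measured genes on the mixed lineage, B/T BAL, proB ALL and normal marrow arrays, 1 array each; filled symbols are the probe set that stands for the gene, open symbols its other probe sets, grey lines join the points of a probe set and the dashed line is the floor of 189. Rag1 and Dntt reach 14988 and 11061 in B/T BAL and lie at 1.76 and 82.8 in proB ALL, while Prkdc and the filled points of Nhej1 vary by less than 2-fold.

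The Ku genes differed from each other in their patterns. Xrcc6, which encodes Ku70, had a signal of 864 in mixed lineage leukemia, 37035 in B/T BAL, 4252 in proB ALL and 2541 in normal marrow by its main probe set. That is 2.94-fold lower in mixed lineage leukemia, 14.6-fold higher in B/T BAL and 1.67-fold higher in proB ALL than in normal marrow. The other probe set of Xrcc6 had 42.7 in mixed lineage leukemia, 185 in B/T BAL, 275 in proB ALL and 89.5 in normal marrow, above the floor in proB ALL alone. Both probe sets were lowest in mixed lineage leukemia, but the dim one was higher in proB ALL than in B/T BAL. The log2 difference between B/T BAL and normal marrow was 3.84 by the brighter one and 2.29 by the mean of both. The dim one lay under the floor on both of these arrays, and no fold is given for it.

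Xrcc5, which encodes the Ku80 subunit, was high in both leukemias with AF4-MLL alone. Its signals were 296 in mixed lineage leukemia, 2022 in B/T BAL, 2402 in proB ALL and 509 in normal marrow. It was thus 3.97-fold higher in B/T BAL and 4.72-fold higher in proB ALL than in normal marrow, and 1.72-fold lower in mixed lineage leukemia. B/T BAL was 1.19-fold below proB ALL, a log2 difference of -0.24 that is smaller than the median gap of 0.56 (log2) between 2 probe sets of a gene in B/T BAL against normal marrow.

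Of the genes of the ligation complex, Lig4 alone stood well apart in B/T BAL. Like Rag1, Rag2, Xrcc5 and Prkdc, Lig4 was measured by a single probe set. In B/T BAL against normal marrow, the gap between 2 probe sets of a gene was 1.55 (log2) at the 90th percentile. Ligase IV had signals of 687 in mixed lineage leukemia, 3119 in B/T BAL, 297 in proB ALL and 482 in normal marrow. It was 6.47-fold higher in B/T BAL than in normal marrow and 10.5-fold higher than in proB ALL, while mixed lineage leukemia was 1.43-fold above normal marrow and proB ALL 1.62-fold below it. Xrcc4, the scaffold of the ligase, had 942 in mixed lineage leukemia, 726 in B/T BAL, 454 in proB ALL and 424 in normal marrow by its main probe set. Its other probe set had 891 in mixed lineage leukemia, 647 in B/T BAL, 324 in proB ALL and 473 in normal marrow, so both were highest in mixed lineage leukemia. The excess there was 2.22-fold by the first and 1.88-fold by the second, on either side of 2-fold.

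The main probe sets of the remaining end joining genes lay within 2-fold of normal marrow on all 3 leukemia arrays. Prkdc, the catalytic subunit of the DNA-dependent protein kinase, had 924 in mixed lineage leukemia, 1372 in B/T BAL, 1535 in proB ALL and 846 in normal marrow, at most 1.81-fold from normal marrow. Nhej1, the ligase cofactor XLF, had 294 in mixed lineage leukemia, 254 in B/T BAL, 184 in proB ALL and 291 in normal marrow, and its other probe set had 270 in mixed lineage leukemia, 294 in B/T BAL, 107 in proB ALL and 258 in normal marrow. Over the 4 arrays the log2 values of Rag1 spanned 8.14, those of Dntt 6.37, Xrcc6 5.34, Lig4 3.19, Xrcc5 2.82, Rag2 2.09, Xrcc4 1.06, Prkdc 0.82 and Nhej1 0.55, against a median span of 1.51 over all genes tested, with signals under the floor entering as measured. Rag1, Dntt, Xrcc6, Lig4 and Xrcc5 had wider spans than 86.7% of those genes or more, and Nhej1 was at the 6.82nd percentile.

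**Figure D3:**
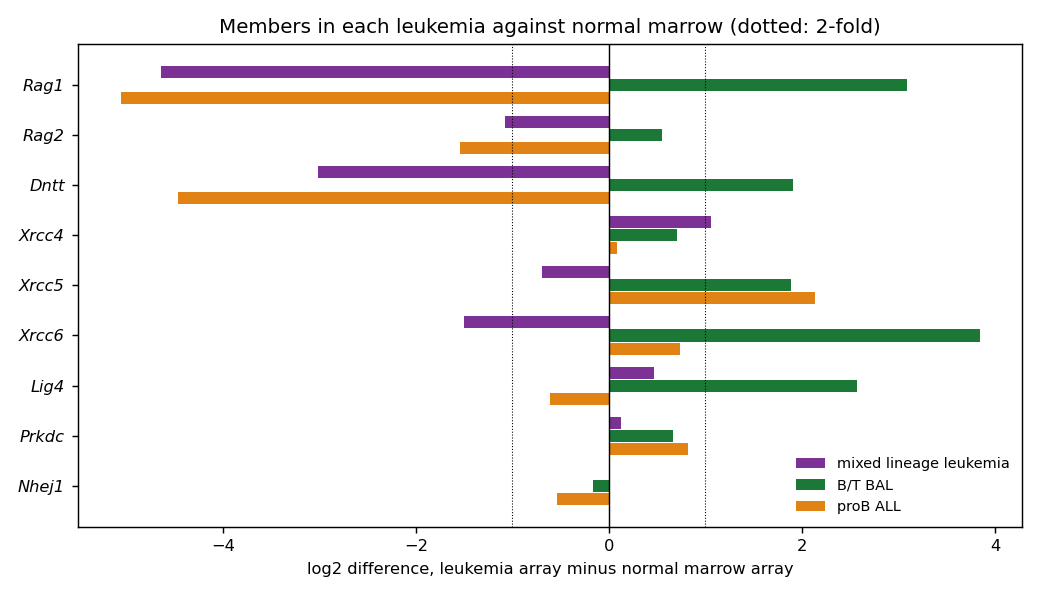
Log2 difference from the normal marrow array (horizontal axis) for each measured member, with 1 bar per leukemia array and dotted lines at 2-fold; there are no replicates and no error bars. Rag1 and Dntt point left in mixed lineage leukemia and proB ALL and right in B/T BAL, and Xrcc6 reaches 3.84 in B/T BAL.

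Counted over the 9 measured genes, B/T BAL had 5 that exceeded normal marrow by 2-fold or more (Rag1, Dntt, Xrcc5, Xrcc6 and Lig4) and 0 that lay as far below it. Over all genes tested the shares were 15.4% higher and 17.7% lower. Mixed lineage leukemia had 1 higher (Xrcc4) and 4 lower (Rag1, Rag2, Dntt and Xrcc6), where all genes gave 18.8% and 15.2%. The proB ALL array had 1 higher (Xrcc5) and 3 lower (Rag1, Rag2 and Dntt), where all genes gave 11.3% and 18.7%. Median log2 differences of the 9 genes were -0.69 in mixed lineage leukemia, 1.89 in B/T BAL and -0.54 in proB ALL, beside 0.079 in mixed lineage leukemia, 0.047 in B/T BAL and -0.11 in proB ALL over all genes. These comparisons share the 1 normal marrow array, and the genes were listed with earlier results of these data known, so the counts are a description. Rag2 counts as lower through signals under the floor, and with such signals raised to the floor 3 genes were lower in mixed lineage leukemia and 2 in proB ALL.

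In 3 of the 9 genes (Rag1, Dntt and Xrcc6) a leukemia stood at least 2-fold above normal marrow and another at least 2-fold below it, which held for 7.21% of all genes tested. In 4 (Rag1, Dntt, Xrcc6 and Lig4) B/T BAL stood at least 2-fold above each of the other arrays, against 5.02% of all genes. None of the 9 was at least 2-fold higher on all 3 leukemia arrays (1.31% of all genes) or lower on all 3 (4.45%). All 9 passed the filter of exceeding the floor on at least 1 array, Rag2 through B/T BAL alone.

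None of these genes passed the threshold of limma, a linear model fitted over all 14012 genes, between the 3 leukemia arrays and the 1 normal marrow array. Across all genes 0 passed as higher and 0 as lower at an adjusted p of 0.05, a share of 0%, and 0.314% were higher and 2.63% lower at an unadjusted p of 0.05, with 0 of the 9 genes among them. Rag1 had a log2 difference of -2.20 ± 2.83 (SE; limma adjusted p = 0.9999) and was higher than in normal marrow in 1 of 3 leukemias. Dntt had -1.86 ± 2.10, also higher in 1 of 3, and Xrcc6 had 1.02 ± 1.71, higher in 2 of 3. These standard errors are moderated by limma. They combine how far the 3 leukemias, each of another immunophenotype, lay apart with the spread of other genes of similar intensity. The lone normal array was taken to vary as the leukemias did. The SD over the 3 leukemias alone was 4.59 for Rag1, 0.49 for Xrcc4 and 0.37 for Prkdc. Xrcc4 and Prkdc were higher than in normal marrow in 3 of 3 leukemias, with log2 differences of 0.62 ± 0.80 and 0.54 ± 0.73. These differences are smaller than the moderated standard errors, which for these genes rest in part on other genes, and larger than the SDs above.

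Leukemia with both fusions was also set against the pair with AF4-MLL alone, 1 array against 2. Here limma again called 0 genes in either direction at an adjusted p of 0.05 (0%), and at an unadjusted p of 0.05 there were 12.3% higher and 5.47% lower, with 2 of the 9 genes, Xrcc5 and Xrcc6, among those lower, from which nothing is read. Xrcc5 had a log2 difference of -2.70 ± 0.63 (limma adjusted p = 0.164), and Xrcc6 had -3.79 ± 1.30 (limma adjusted p = 0.244). Neither passed after adjustment. The lone mixed lineage array was taken to vary as the B/T BAL and proB ALL arrays did, which differ in immunophenotype, and the fit has 1 residual degree of freedom. Rag1, by contrast, had -3.65 ± 3.28 (limma adjusted p = 0.597), since B/T BAL and proB ALL lay at opposite ends.

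Within the leukemias that carry AF4-MLL alone, Rag1, Dntt, Lig4 (log2 difference 3.19) and Xrcc6 (3.11) were at least 2-fold higher in B/T BAL than in proB ALL, 4 of the 9 genes with signals raised to the floor, beside 10.8% of all genes in that setting. With signals as measured Rag2 (2.09) made 5 of 9, and 0 were lower, beside 15.9% and 10.5% of all genes. Xrcc4 and Nhej1 had differences of 0.62 and 0.37, and Xrcc5 and Prkdc had -0.24 and -0.16. With 1 array on each side no test was made. For Rag2, which passed the filter through B/T BAL alone, raising signals to the floor left a log2 difference of 0.073.

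**Figure D4:**
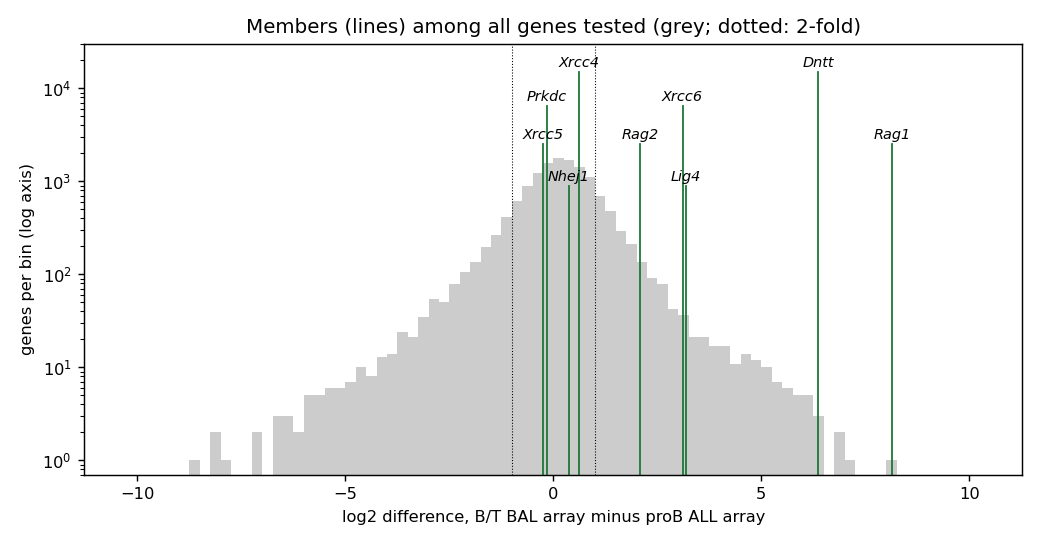
Log2 difference between the B/T BAL and the proB ALL array (horizontal axis) for the 14012 genes tested (grey, number per bin on a log axis) with the 9 members as green lines and 2-fold as dotted lines. Rag1 at 8.14 and Dntt at 6.37, both against signals under the floor in proB ALL, lie at the right end, and Xrcc5, Prkdc, Nhej1 and Xrcc4 lie between -0.24 and 0.62.

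Among all other genes, those nearest to Rag1 in their pattern were sought by the Euclidean distance of log2 values centred over the 4 arrays, among 14011 genes. Dntt was the nearest (distance 2.02), followed by Cd3e (2.13), a chain of the T-cell receptor complex, Smo (2.46), the signal transducer of the hedgehog pathway, Fam169b (2.80) and Sapcd1 (2.92). Cd3e had signals of 43.8 in mixed lineage leukemia, 11474 in B/T BAL, 32.3 in proB ALL and 372 in normal marrow. The genes nearest to Dntt were Il17rb (1.48), a receptor of interleukin 25, Pdlim4 (1.63), Gm10451 (1.68), Fam169b (1.80) and Cnn3 (1.98). Rag2, being dim, had a flatter profile, and its nearest genes were Cdc25c (0.048), a phosphatase of mitotic entry, Adamts3 (0.10), Zfp692 (0.16), AY036118 (0.18) and B3gat1 (0.23). These distances rest on 4 arrays, and signals under the floor entered them as measured.

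Receptor chain genes and their signalling partners differed from normal marrow on each leukemia array. The listed T-cell receptor genes themselves were not measured: Tcra lay under the floor, and Tcrb, Tcrg, Trac and Trbc1 had no probe set used here. Ighm and Igk, the measured chains of recombined loci, were lower than in normal marrow on each leukemia array (log2 differences -1.04 and -1.17 in B/T BAL). Of 12 measured receptor chain genes, 5 (Ptcra and the 4 CD3 chains) were higher and 7 (all of the B-cell or pre-B-cell receptor) lower by 2-fold or more in B/T BAL than in normal marrow. Those furthest apart were Vpreb1 (log2 difference -6.72), part of the surrogate light chain, Cd3d (5.37), Ptcra (5.36), the alpha chain of the pre-T-cell receptor, and Cd3g (5.24). In proB ALL 3 were higher and 7 lower, led by Vpreb1 (-7.10), Igll1 (-5.17), Vpreb3 (-5.13) and Cd247 (3.84), a signalling chain shared by T-cell and NK receptors. The CD3 chains did not move together there: Cd3d (3.58) and Cd3g (2.29) were higher and Cd3e (-2.34) lower, as named after their values were seen. In mixed lineage leukemia 0 were higher and 7 lower, led by Vpreb1 (-6.23), Igll1 (-5.32), Vpreb3 (-4.08) and Cd3e (-2.15). The surrogate light chain genes Vpreb1 and Igll1 were thus under the floor in all 3 leukemias, B/T BAL with its high Rag1 and Dntt included.

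Marker lists of other cells differed between the arrays. Their summed signals are set largely by the brightest genes of a list. All 13 measured T-cell precursor markers were higher in B/T BAL than in normal marrow by 2-fold or more. Their summed signal there was 188172, against 3717 on the mixed lineage array, 61929 on the proB ALL array and 5478 on the normal marrow array. On the proB ALL array most of the sum came from Thy1 (28959), Cd3d (12582) and Cd2 (12388), which did not have the order of arrays of Rag1 and Dntt. Of the list, only Cd3e, Cd8a, Cd5 and Ptcra did have that order, and their step from mixed lineage leukemia to proB ALL lay near or under the floor. The remaining markers, such as Bcl11b, Cd8b1 and Cd6, did not have it. B-cell precursor markers, counted without Rag1 and Dntt, summed to 60530 in mixed lineage leukemia, 33927 in B/T BAL, 6948 in proB ALL and 86321 in normal marrow, and 8 of 10 were at least 2-fold lower in B/T BAL. Cd24a alone made up most of the sum in mixed lineage leukemia, B/T BAL and normal marrow, and without it the sums were 7794 in mixed lineage leukemia, 2363 in B/T BAL, 3931 in proB ALL and 34057 in normal marrow, so that B/T BAL was then the lowest. Red cell precursor markers were at least 2-fold lower in each leukemia in 7 of 7 genes, with sums of 9014 in mixed lineage leukemia, 17461 in B/T BAL, 13083 in proB ALL and 178067 in normal marrow. Neutrophil and monocyte markers, 12 of them measured, had 2 higher and 0 lower in mixed lineage leukemia, 1 higher and 6 lower in B/T BAL, and 0 higher and 9 lower in proB ALL. NK and cytotoxic markers had 0 higher and 5 lower of 12 in mixed lineage leukemia and 1 higher and 6 lower in B/T BAL. The part of cell composition in the differences of Rag1, Dntt and the other members was not tested. The 14 genes of dividing cells, by contrast, had 0 at least 2-fold apart between B/T BAL and normal marrow in either direction, with a median log2 difference of -0.39, and 0 higher and 4 lower in mixed lineage leukemia and 0 higher and 2 lower in proB ALL. With the arrays scaled to the 75th percentile 1 of these genes was lower in mixed lineage leukemia and 3 in proB ALL. Under quantile normalization 3 were lower in proB ALL too.

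Transcription factors reported to act on the Rag locus, 16 of 17 of them measured, also differed widely. In B/T BAL 7 were at least 2-fold higher and 5 lower than in normal marrow. Furthest apart was Gfi1b (log2 difference -5.61), a transcriptional repressor found in red cell and platelet precursors that is also known to repress Rag transcription. Next came Gata3 (5.02), a factor of T-cell development, and Spib (-4.37), an Ets factor of B cells and dendritic cells. Bcl11a (-3.26), a factor needed for B-cell development, followed. In proB ALL 7 were higher and 5 lower, led by Gfi1b (-5.30), Gata3 (2.58), Ebf1 (-2.06), a factor that sets up the B lineage, and Bcl11a (-1.94). In mixed lineage leukemia 1 was higher (2 with either scaling alternative) and 6 lower, led by Gfi1b (-4.02), Spib (-2.53), Ebf1 (-1.98) and Tcf3 (-1.46), which encodes the E protein E2A. Tcf3 had signals of 561 in mixed lineage leukemia, 4641 in B/T BAL, 2399 in proB ALL and 1635 in normal marrow, and its relative Tcf12, named here after its values were seen, had 4261 in mixed lineage leukemia, 19945 in B/T BAL, 10061 in proB ALL and 4385 in normal marrow. Both were highest in B/T BAL, though their log2 differences from proB ALL, 0.94 and 0.98, were under 2-fold. In that comparison 4 factors of the list were at least 2-fold higher in B/T BAL and 5 lower. With quantile normalization 5 were higher, and 6 with scaling to the 75th percentile. Foxo1 (-1.06) and Foxp1 (-1.19) were among the lower, and Ikzf1 (0.12) hardly differed. The list was drawn up with earlier results of these data known, and its counts are a description.

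Other end joining factors and the wider repair pathways varied less than Rag1 and Dntt. Of 9 measured RAG cofactors and further end joining factors, 0 were at least 2-fold higher and 1 lower in B/T BAL, 0 higher and 1 lower in proB ALL, and 1 higher and 1 lower in mixed lineage leukemia. The one lower on every leukemia array was Aplf, a histone-binding factor that assists Ku, with signals of 89.0 in mixed lineage leukemia, 97.3 in B/T BAL, 193 in proB ALL and 762 in normal marrow. Hmgb2, a DNA-bending protein that assists RAG cutting, was the one higher in mixed lineage leukemia, with 29773 there, 15575 in B/T BAL, 12315 in proB ALL and 8911 in normal marrow. The median log2 differences of this list were -0.051 in mixed lineage leukemia, 0.35 in B/T BAL and 0.055 in proB ALL, of which the first was 0.078 and the last -0.033 with the arrays scaled to the 75th percentile.

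Break sensing genes, 13 of 14 measured, had 1 higher and 0 lower in B/T BAL, 3 higher and 3 lower in proB ALL, and 0 higher and 4 lower in mixed lineage leukemia at 2-fold. Atm, the kinase that signals double-strand breaks, was the one higher in B/T BAL, with signals of 749 in mixed lineage leukemia, 2021 in B/T BAL, 3718 in proB ALL and 740 in normal marrow. Like Xrcc5, it was higher in both leukemias with AF4-MLL alone. In proB ALL the others that were higher, named after their values were seen, were Atr (log2 difference 1.26), a kinase of replication stress, and Mre11a (1.12), a nuclease of the break-sensing complex, and the lower were Chek2 (-2.12), a checkpoint kinase, Mdc1 (-1.59), an adaptor at breaks, and H2ax (-1.46), the histone variant marked there. The 4 lower in mixed lineage leukemia, Chek2, Rad50, Mad2l2 and Mdc1, had log2 differences between -1.44 and -1.004, and 1 gene of the list was lower by 2-fold under quantile normalization and likewise with scaling to the 75th percentile.

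In the 5 measured genes of alternative end joining, which joins ends without Ku, B/T BAL and proB ALL had 0 at least 2-fold apart from normal marrow, and mixed lineage leukemia had 0 higher and 2 lower, Parp1 (log2 difference -1.55) and Lig1 (-1.15). In proB ALL 1 of them was lower under quantile normalization and likewise with scaling to the 75th percentile. Homologous recombination had 10 measured genes, of which 2 were higher and 3 lower in B/T BAL, 0 higher and 3 lower in proB ALL, and 0 higher and 2 lower in mixed lineage leukemia (1 lower under quantile normalization). Brca1, a tumour suppressor of that pathway, was lower on every leukemia array, with signals of 1721 in mixed lineage leukemia, 1981 in B/T BAL, 1814 in proB ALL and 5821 in normal marrow. Genes of class switching and mutation, 5 of 8 measured, had 1 higher (Ung, a uracil glycosylase, log2 difference 1.28) and 1 lower (Polh, a translesion polymerase, -1.71) in B/T BAL, 0 in either direction in proB ALL, and 0 higher and 2 lower in mixed lineage leukemia (Exo1, an exonuclease, -1.53, and Ung, -1.41).

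**Figure D5:**
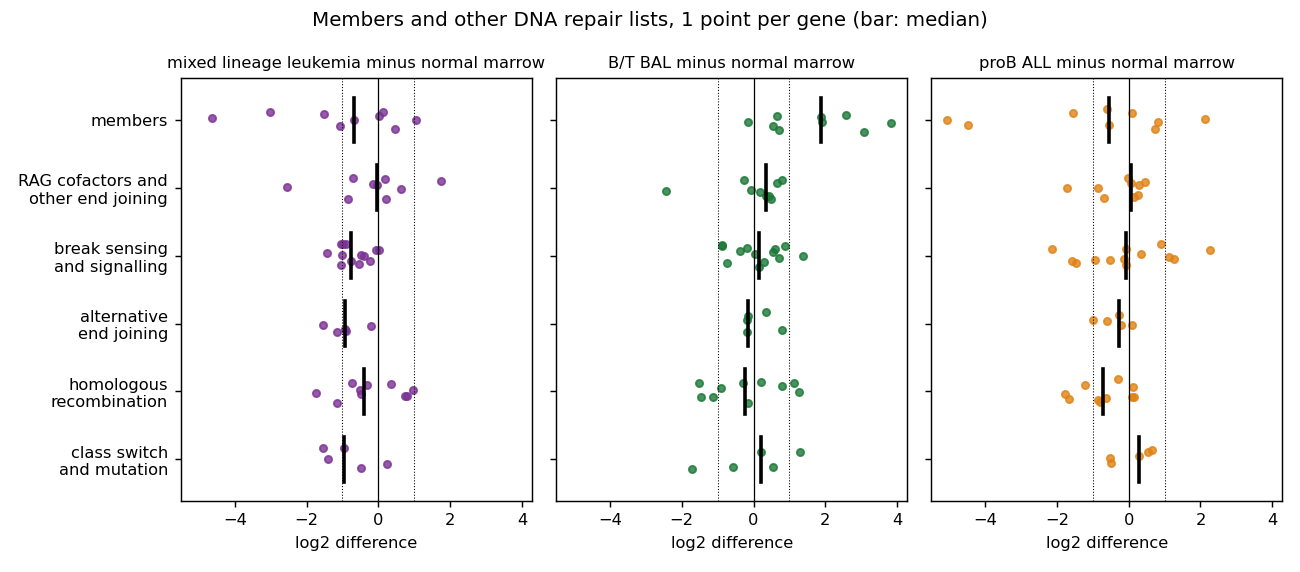
Log2 difference from normal marrow (horizontal axis) for each gene of the members and of 5 other DNA repair lists, in mixed lineage leukemia, B/T BAL and proB ALL (1 panel each); points are genes, black bars medians and dotted lines 2-fold. The members have a median of 1.89 in B/T BAL, where the other lists have medians between -0.22 and 0.35. Their medians of -0.69 in mixed lineage leukemia and -0.54 in proB ALL lie within the range of those of the other lists.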

How the data were processed

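Total RNA was biotin-labelled and hybridised to Affymetrix mouse arrays, 1 for each of 4 samples. The deposited values are intensity values, 1 signal per probe set, made by the authors with MAS5 per the submitters' processing notes. The version of MAS5 is not given in the sources used here. MAS5 detection calls were not used here. The 64 control probe sets, 932 probe sets with several genes and 9160 unnamed in the platform annotation used were left out of gene comparisons. Signals were analysed as log2(signal + 51.4), the 25th percentile of all signals, which understates differences of dim genes. Where a gene had several probe sets, the one with the largest mean over the arrays stood for it. Of 18193 genes, the 14012 above the floor (the median signal, 189) on at least 1 array were tested. A fold with its dimmer side at or under the floor is computed against the floor and written as "at least". Groups were compared with limma 3.58.1 (lmFit and eBayes with an intensity trend) in R 4.3.3. Benjamini-Hochberg adjustment was made over all genes tested, at a threshold of 0.05. The fit was tested on simulated data with independent noise and a shift shared by all leukemias. Leukemias that differ from each other, as here, were not simulated, so that test does not show how the fit behaves on these data. Single arrays were compared by 2-fold counts, without a test. Probe sets marked _x_at, _s_at or _a_at can match several transcripts. Promoters were searched in Python 3.11.15. The number of arrays limits the precision, and labels do not say whether a sample pooled animals. The members and gene lists were chosen with earlier results of these data known. All members and their probe sets are named, with up to 4 genes of each other list that differed most on the array described and the 5 nearest to Rag1, Rag2 and Dntt. Some further genes, such as Foxo1, Foxp1, Ikzf1, Cd8a, Cd5, Ighm and Igk, were named outside this rule. Alternatives covered scaling, pseudocount, filter, probe set choice, floor, robust eBayes and leaving out each leukemia.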

Additional observations from a re-analysis of the deposited data

Results flagged for a closer look

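In 3 genes a leukemia stood at least 2-fold above normal marrow while another stood at least 2-fold below it, and with 1 array per leukemia these differences between leukemias were not tested. Rag1 had log2 differences from normal marrow of -4.64 in mixed lineage leukemia, 3.09 in B/T BAL and -5.06 in proB ALL. For Dntt the values were -3.02 in mixed lineage leukemia, 1.91 in B/T BAL and -4.46 in proB ALL. For Xrcc6 they were -1.50 in mixed lineage leukemia, 3.84 in B/T BAL and 0.73 in proB ALL, by its brighter probe set. The values of Rag1 in mixed lineage leukemia and proB ALL and of Dntt in proB ALL rest on signals under the floor.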

How the results depend on the processing

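No paired analysis was possible because each group held 1 array. Between leukemia and normal marrow, limma's 0 calls became 15 with a pseudocount at the 50th percentile and 23 with robust eBayes, all lower, and ranged from 0 (without mixed lineage leukemia) to 113 (without B/T BAL) when 1 leukemia was left out, with 71 without proB ALL. No member was among them. Between both fusions and AF4-MLL alone, raising signals to the floor gave 2521 calls, 2459 higher and 62 lower, since it sets many genes equal on the B/T BAL and proB ALL arrays and leaves them no spread. No member was called there either, and leaving out an array could not be tested. The count of members at least 2-fold higher in mixed lineage leukemia against normal marrow was 1 (Xrcc4) and became 0 with a pseudocount at the 50th percentile, the mean over probe sets, or without _x_at, _s_at and _a_at probe sets. Counts of members in the other comparisons stayed within 1.5 times. Of 519 single values of members recomputed under alternatives, 9 changed sign. Of these, 4 came from the fits: leukemia minus normal marrow without B/T BAL gave -0.072 for Lig4 and -0.39 for Xrcc6 (2.29 for Xrcc6 without mixed lineage leukemia), Rag2 gave 0.024 with signals raised to the floor, and Nhej1 gave -0.050 with quantile normalization for both fusions minus AF4-MLL alone. The other 5 were differences between 2 arrays under 2-fold: Xrcc4 in proB ALL (0.087) gave -0.024 with quantile normalization, -0.20 with the mean over probe sets and -0.48 without _x_at, _s_at and _a_at probe sets, Nhej1 in mixed lineage leukemia (0.015) gave -0.42 with quantile normalization, and Nhej1 in B/T BAL (-0.16) gave 0.16 without such probe sets. Among 316 two-array differences of members, 9 dropped under 2-fold and 2 passed it. Rag1 in B/T BAL against proB ALL, 8.14 with signals as measured, ranged from 5.97 with signals raised to the floor to 12.41 with a pseudocount of 1. Scaling to the 75th percentile moved the median of all genes in mixed lineage leukemia against normal marrow to 0.21, against 0.079. Counts of the other gene lists moved with scaling as well, also where no alternative is given beside them. Receptor chain genes lower in mixed lineage leukemia, 7 as deposited, became 8 with quantile normalization and 6 with scaling to the 75th percentile. With the latter, 1 gene of homologous recombination was higher there.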
